A study of Mus musculus with 12 samples.

Results

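The genes of the integrins and of the adaptor proteins that tie integrins to actin were followed in cells of the mouse superior cervical ganglion (SCG), a sympathetic ganglion. The list holds 40 genes, chosen by name and not by their values, and 39 of them had a probe set of their own among the 18193 genes measured. Itga11, a collagen-binding alpha chain, was not analysed here. Messenger RNA was read on 12 arrays in 3 groups with 4 biological replicates each. The 2D group was SCG cells grown on a flat polystyrene Petri dish per the labels, where the methods name glass bottom dishes. The 3D group was SCG cells grown in porous polystyrene scaffolds, and the tissue group was freshly dissected SCG. All mice were of the CD1 strain and carried no named allele, and the age is 21 days by the labels and neonatal by the methods. Both cultures, but not the tissue, had been dissociated with collagenase, plated on type I collagen with cells of a pair of ganglia per dish or scaffold on average, and kept for 5 days in medium with serum and nerve growth factor. Dissociation, serum, growth factor, collagen coating and time in culture therefore cannot be told apart in a comparison with tissue. Whether separate litters or dissections stand behind the replicates is not stated, so a p-value measures the spread between these samples.

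Integrins are receptors made of an alpha and a beta chain that span the membrane and bind the extracellular matrix or other cells. Talins and kindlins switch them on from inside the cell, and vinculin, alpha-actinin, zyxin and the complex of ILK, PINCH and parvin link them to actin in focal adhesions. In ganglia, integrins of glia bind the laminins of the basal lamina, and cells that spread on a coated surface are known for building large focal adhesions.

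Expression is given as the RMA level, a log2 value made by the authors, so that a difference of 1 is a 2-fold change. Each gene was read by its probe set with the highest mean over the 12 arrays, and pairs of groups were compared with limma, adjusting p by Benjamini-Hochberg across 45037 probe sets at a threshold of 0.05. The SD of all values on an array was 1.93 on tissue replicate 3 and 2.14 on tissue replicate 2, against 2.31 to 2.42 on the other 10 arrays. Tissue replicate 3 also lay farthest from its own group, with a median root mean square distance of 0.993, against 0.2 to 0.648 on the other arrays. Skeletal muscle markers had a median level of 5.02, 8.67, 6.65 and 8.8 on tissue replicates 1 to 4, against 4.93 to 5.29 in the cultures. Of the 9 cell division genes measured, 9 were lower in tissue than in either culture. The arrays read all cells together, so fewer cells of a type and less RNA per cell cannot be told apart.

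In tissue, most of the changes ran downward. Against 2D, 3 of the 39 genes were higher and 13 lower (9.87% and 14.3% of all genes). Against 3D, 5 were higher and 18 lower (15.5% and 20.1% of all genes, 35.6% in either direction). Both comparisons use the same 4 tissue arrays and are not independent. The median log2 difference of the 39 genes was -0.47 against 2D and -0.44 against 3D, where that of all genes was 0.03 in each. The former became -0.19 and -0.09 with cyclic loess, and -0.19 and -0.17 with centring of the arrays on their bright probe sets. Among genes at a level of 6 or more on at least 4 arrays, to which 36 of the 39 belong, the background was larger. There 3 of the 36 were higher and 13 lower relative to 2D (11.1% and 20.2% of such genes), and 4 higher and 17 lower relative to 3D (17.8% and 27.7%). Between 3D and 2D, 0 of the 39 passed limma's test. With that centring the median of all genes moved to 0.31 against either culture, and the share of higher genes among those of the list that passed was 37.5% rather than 18.8% relative to 2D and 40% rather than 21.7% relative to 3D. Cyclic loess gave 40% and 38.1%. Over all genes that passed, the share of higher ones was 61.6% with centring rather than 40.9% relative to 2D. Relative to 3D it was 60.6% rather than 43.5%, and cyclic loess gave 52.3% in each comparison. Tissue replicate 1 had muscle markers at the level of the cultures. With it as the only tissue array, the median difference of the 39 genes was -0.41 relative to 2D and -0.26 relative to 3D. That of all genes was -0.015 and -0.03. Relative to 2D, Itga5 was then at -3.2, Zyx at -2.27 and Actn4 at -1.49, while Tns1 was at 1.4. A single array has no spread of its own, so only sizes are given for it. Without tissue replicate 2 there were 0 higher and 8 lower relative to 2D (4.91% and 8.11% of all genes) and 3 higher and 14 lower relative to 3D (11.4% and 15.4%). Without tissue replicate 3 there were 4 higher and 14 lower relative to 2D (11.4% and 14.2%) and 7 higher and 19 lower relative to 3D (19.3% and 22.2%).

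**Figure D1:**
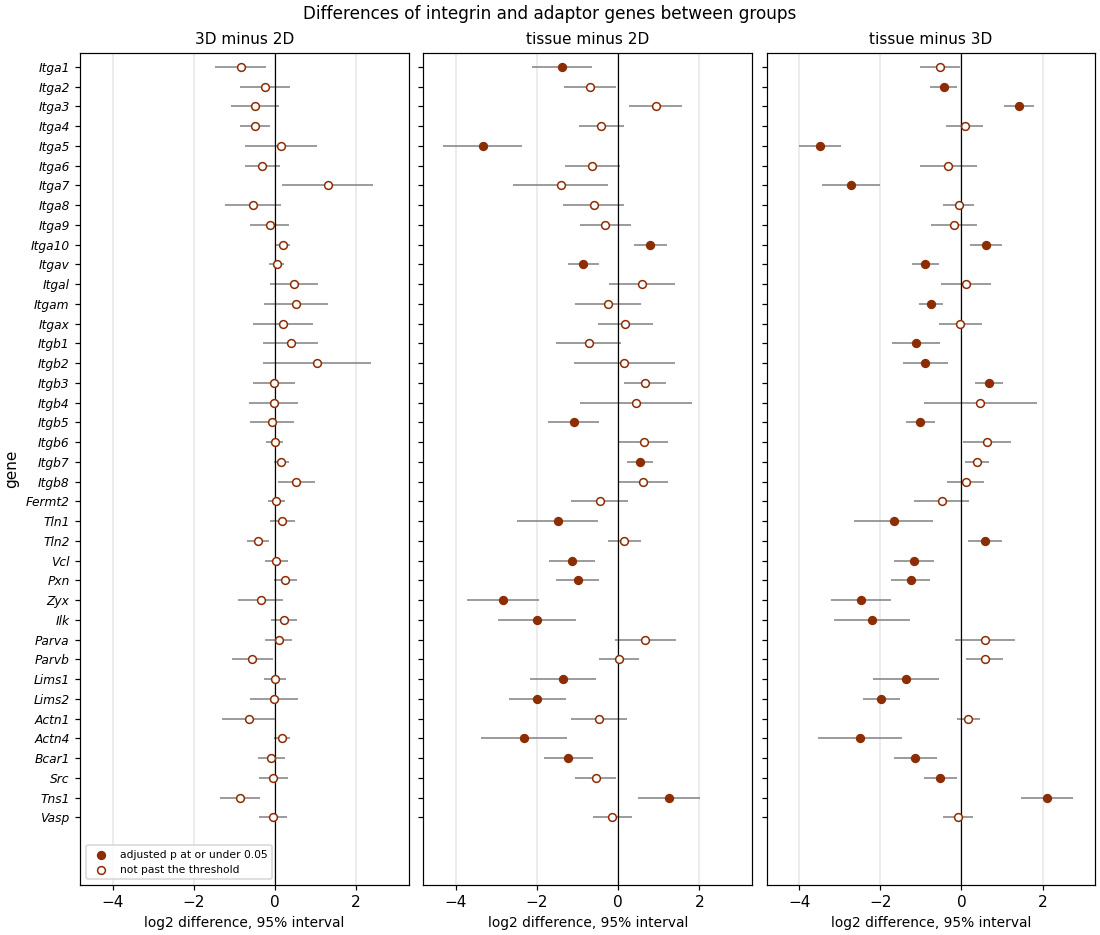
Log2 differences of the 39 genes between the cultures (3D minus 2D) and between tissue and each culture, with 95% confidence intervals from limma (4 arrays a group); filled points passed an adjusted p of 0.05. The left panel holds no filled point, while Itga5, Zyx and Actn4 lie more than 2 below 0 in both tissue panels.

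Among the alpha chains that bind the RGD motif of fibronectin and vitronectin, Itga5 and Itgav were lower in tissue. Itga5 codes for the alpha chain of the main fibronectin receptor. Its level was 8.61, 9.0, 9.53 and 10.68 on the 2D arrays, 9.37, 9.71, 9.67 and 9.66 on the 3D arrays, and 6.24, 5.49, 6.09 and 6.62 on the tissue arrays. All culture arrays stood above all tissue arrays, and 2D spread more widely than 3D. The log2 difference was -3.35 ± 0.43 (SE) against 2D and -3.49 ± 0.23 (SE) against 3D (limma, adjusted p = 0.0015 and 1.9e-05), that is 10.2-fold and 11.3-fold lower in tissue. Of the 3 other Itga5 probe sets, 1 was also lower against both cultures, and the remaining 2 did not pass, with differences of -0.14 to -0.64.

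Itgav, the alpha chain that vitronectin receptors share, read 12.68 to 13.02 on the 8 culture arrays and 11.75 to 12.3 on the tissue arrays, with no overlap. Its difference was -0.86 and -0.9 in tissue relative to 2D and 3D (adjusted p = 0.00838 and 0.00205). With cyclic loess it was -0.4 and -0.45 and passed neither test (adjusted p = 0.172 and 0.0929), and with centring it was -0.58 against 2D (adjusted p = 0.0654). Another Itgav probe set was lower by more, at -2.72 and -2.64, and the 3 remaining ones did not pass. Itga8, the third RGD-binding alpha chain, was at 6.75 ± 0.71 (SD, n = 4) in 2D, 6.2 ± 0.13 in 3D and 6.14 ± 0.3 in tissue and passed no test. Without 2D replicate 3 its difference between tissue and 2D was -0.95 (adjusted p = 0.0243).

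The collagen-binding alpha chains moved in different directions. Itga1 read 10.45, 9.95, 8.98 and 9.87 in 2D, 9.29, 8.83, 8.9 and 8.83 in 3D, and 8.4, 8.27, 9.02 and 8.04 in tissue. Tissue overlapped with both cultures, since tissue replicate 3 lay above 2D replicate 3 and above 3 of the 3D arrays. Itga1 was lower in tissue than in 2D, at -1.38 ± 0.33 (SE, adjusted p = 0.0187) on the log2 scale, and against 3D it was at -0.53 (adjusted p = 0.092). The first call was lost without 2D replicate 2 or 4 or tissue replicate 2 (adjusted p = 0.0506 to 0.0598), with cyclic loess (-0.99, adjusted p = 0.0968) and when its probe sets were averaged (-1.03, adjusted p = 0.0572). Without tissue replicate 3 Itga1 passed against 3D too, at -0.73 (adjusted p = 0.00686).

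Itga2, the alpha chain of the platelet collagen receptor, was lower in tissue than in 3D, at -0.44 (adjusted p = 0.0426). That call was lost without any one of the 3D arrays or without tissue replicate 2 (adjusted p = 0.0543 to 0.117), with centring (-0.17, adjusted p = 0.434), with array quality weights (-0.27, adjusted p = 0.141) and with 1 fit of all 12 arrays (adjusted p = 0.164). Against 2D, Itga2 was at -0.69 (adjusted p = 0.106), which passed with 1 fit of all 12 arrays (adjusted p = 0.0448) and without 2D replicate 3, at -0.95 (adjusted p = 0.025). Itga10, a chain known from cartilage, went the other way. Its level was 5.29 to 5.51 in 2D, 5.5 to 5.69 in 3D and 5.84, 6.36, 6.53 and 5.97 in tissue, so that the 4 tissue arrays lay above the cultures. The difference was 0.79 and 0.61 in tissue relative to 2D and 3D (adjusted p = 0.0175 and 0.0266), at a level near the lower end of the scale, where RMA gives no detection call. The calls were lost without 2D replicate 1 or 2 or tissue replicate 2 (adjusted p = 0.0503 to 0.0555), and without any one of the 3D arrays or tissue replicate 2 (adjusted p = 0.0517 to 0.0784).

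**Figure D2:**
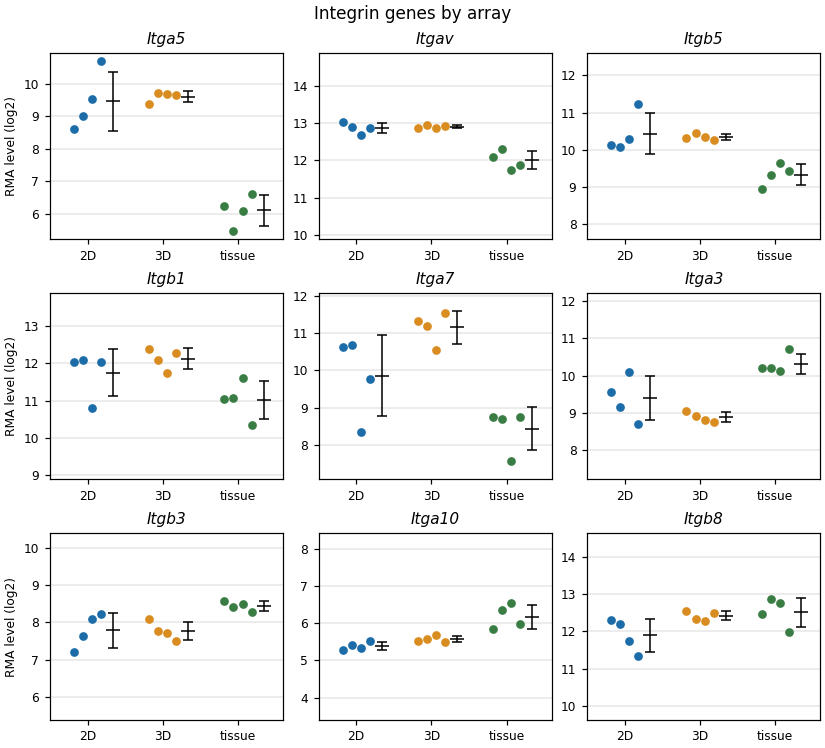
RMA levels (log2) of 9 integrin genes on the 12 arrays, as points by group in replicate order, with the mean and SD of each group (n = 4) as bars beside them. Itga5, Itgav and Itgb5 lie below the cultures on all 4 tissue arrays, Itga3, Itgb3 and Itga10 above, and Itga7 reaches 10.54 to 11.54 in 3D.

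The laminin-binding alpha chains divided as well. Itga7 pairs with beta1 on muscle and Schwann cells. Its level was 10.62, 10.67, 8.35 and 9.78 in 2D, 11.32, 11.2, 10.54 and 11.54 in 3D, and 8.74, 8.69, 7.56 and 8.75 in tissue. Tissue lay below 3D on every array, while 2D replicate 3 fell into the tissue range. The log2 difference was -2.72 against 3D (standard error 0.32, adjusted p = 0.000367) and -1.42 against 2D (standard error 0.52, adjusted p = 0.0762). Without 2D replicate 3 the latter was -1.92 (adjusted p = 0.0128). Between 3D and 2D, Itga7 differed by 1.3, with a 95% interval from 0.18 to 2.41 (adjusted p = 0.369). The glia markers, which include Schwann cell genes, had a median of 11.67 to 12.1 in 2D, 11.82 to 12.19 in 3D and 10.38 to 11.93 in tissue. Of 8 glia markers measured, 1 was higher and 3 lower against 2D, and 2 higher and 3 lower against 3D. Their part in the Itga7 values was not tested.

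Itga3, an alpha chain of epithelial and neuronal laminin receptors, read 9.57, 9.16, 10.1 and 8.71 in 2D, 9.06, 8.9, 8.8 and 8.76 in 3D, and 10.19, 10.2, 10.11 and 10.71 in tissue. The tissue values lay just above 2D replicate 3 and well above all 3D arrays. Relative to 3D it was higher in tissue by 1.42 ± 0.16 (SE, adjusted p = 0.000353), that is 2.68-fold, and stayed past the threshold in each of the 8 fits without 1 array. Against 2D the difference was 0.92 (adjusted p = 0.0516), and it passed with cyclic loess at 1.33 (adjusted p = 0.0145), with centring at 1.2 (adjusted p = 0.0148) and without 2D replicate 3 at 1.16 (adjusted p = 0.0209). Another Itga3 probe set was higher than in 3D by less, at 0.56 (adjusted p = 0.00979), and at 0.285 did not pass against 2D. The last Itga3 probe set, at a mean level of 5.99, was at -0.005 and 0.04 relative to 3D and 2D and did not pass. Itga6, which pairs with beta1 or beta4, was at 11.4 ± 0.26 (SD, n = 4) in 2D, 11.09 ± 0.35 in 3D and 10.76 ± 0.62 in tissue and passed no test. Of the chains that bind VCAM-1 and other ligands, Itga4 and Itga9 passed no test, with differences of -0.42 to 0.08 between tissue and the cultures.

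Itgb1, the beta chain that most alpha chains of this list pair with, was lower in tissue than in 3D. It read 12.04, 12.1, 10.8 and 12.05 in 2D, 12.4, 12.1, 11.74 and 12.29 in 3D, and 11.05, 11.08, 11.6 and 10.35 in tissue. All tissue values were below those of 3D, and 2D replicate 3 was again within the tissue range. The difference was -1.11 against 3D (standard error 0.26, adjusted p = 0.0121) and -0.73 against 2D (adjusted p = 0.153), or -1.04 without 2D replicate 3 (adjusted p = 0.0403). Against 3D the call was lost with cyclic loess at -0.66 (adjusted p = 0.223) and with centring at -0.84 (adjusted p = 0.0638). The probe sets of Itgb1 disagreed in size, and 1 of the 5 others gave -3.36 and -3.69 in tissue relative to 2D and 3D (adjusted p = 0.021 and 0.00653). Another, at a mean level of 3.65, was higher against 2D by 0.63 (adjusted p = 0.0436).

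The beta chains that pair with alpha v went apart. Itgb5, a vitronectin receptor chain, read 10.13, 10.07, 10.28 and 11.24 in 2D, 10.27 to 10.45 in 3D, and 8.96, 9.31, 9.64 and 9.43 in tissue, which did not overlap with the cultures. It was lower, at -1.1 and -1.01 in tissue relative to 2D and 3D (adjusted p = 0.0248 and 0.00178), and its 3 other probe sets gave -1.89 to -2.9. Relative to 2D the call was lost without tissue replicate 2 (adjusted p = 0.0685), and with cyclic loess (-0.66) and centring (-0.81). With cyclic loess the call against 3D was lost too (-0.58, adjusted p = 0.129).

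Itgb3, the beta chain of platelets and osteoclasts, was in contrast higher in tissue than in 3D. Its level was 8.58, 8.4, 8.5 and 8.29 in tissue, 7.5 to 8.09 in 3D and 7.19, 7.64, 8.08 and 8.23 in 2D, so that tissue lay above every culture array. The difference was 0.68 relative to 3D and 0.66 relative to 2D (adjusted p = 0.0104 and 0.0691). The latter passed with cyclic loess at 0.89 (adjusted p = 0.0286) and with centring at 0.94 (adjusted p = 0.0317). The other Itgb3 probe set, at a mean level of 5.44, was at 0.255 and 0.24 relative to 3D and 2D and did not pass. Itgb8, a chain that activates latent TGF-beta and is known in glia, was at 11.9 ± 0.44 (SD, n = 4) in 2D, 12.42 ± 0.13 in 3D and 12.52 ± 0.39 in tissue, and passed no test. Itgb6, known from epithelia, was at 3.84 to 4.16 in the cultures and 3.99 to 5.35 in tissue, near the lower end of the scale. Its differences of 0.62 and 0.63 passed in neither comparison (adjusted p = 0.114 and 0.0934), but did with 1 fit of all 12 arrays (adjusted p = 0.048 and 0.0443) and without tissue replicate 1, at 0.84 and 0.85 (adjusted p = 0.0315 and 0.0197).

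Itgb4, the hemidesmosome chain that also serves Schwann cells, had the widest spread of the 39 genes in tissue. The 4 tissue arrays read 10.7, 8.36, 8.47 and 11, against 8.49 to 9.63 in the cultures. Replicates 1 and 4 lay above every culture array and replicates 2 and 3 below every one. The SD was 1.41 (n = 4) in tissue, 0.39 in 2D and 0.48 in 3D, and the difference of 0.43 against 2D was within that spread (adjusted p = 0.608). With tissue replicates 2 and 3 both left out, Itgb4 was higher by 1.65 and 1.68 in tissue relative to 2D and 3D (adjusted p = 0.00868 and 0.00159). Sympathetic neuron markers on these arrays had a median of 12.86 and 12.98 on tissue replicates 1 and 4 and of 12.1 and 10.79 on replicates 2 and 3. Glia markers had a median of 11.76 and 11.93 on replicates 1 and 4 and of 11.19 and 10.38 on replicates 2 and 3, and fibroblast markers of 10.92 and 10.65 against 9.51 and 9.32. Replicates 2 and 3 were also the arrays with the lowest SD of all values. The part of these in the Itgb4 values was not tested.

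Of the leukocyte integrins, Itgam and Itgb2, the 2 chains of the complement receptor of macrophages, were lower in tissue than in 3D. Itgb2 read 6.79, 6.34, 5.58 and 8.65 in 2D, 7.27, 8.32, 8.25 and 7.67 in 3D, and 6.83, 7.26, 6.93 and 6.93 in tissue. Itgam read 5.28, 4.29, 4.35 and 6.0 in 2D, 5.4 to 5.62 in 3D and 4.51 to 4.9 in tissue. For both genes 2D spanned the whole range and its replicate 4 was the highest of the 12 arrays. The difference between tissue and 3D was -0.89 for Itgb2 (adjusted p = 0.0218) and -0.76 for Itgam (adjusted p = 0.00282). Itgam was below 6 on 11 of the 12 arrays, near the lower end of the scale. With centring the differences were -0.62 and -0.49 and passed no longer (adjusted p = 0.101 and 0.0764), nor did they with 1 fit of all 12 arrays (adjusted p = 0.17 and 0.0662), and the call for Itgb2 was lost without 3D replicate 2 or 3 (adjusted p = 0.0658 and 0.066).

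Between tissue and 3D, where these chains were lower, the macrophage markers moved in both directions. Of 16 macrophage markers, 9 were higher in tissue than in 3D and 3 lower, and against 2D 2 were higher and 2 lower. Mrc1, the mannose receptor, was higher in tissue than in 3D by 2.48 (adjusted p = 0.00223) and Cx3cr1, a chemokine receptor of resident macrophages, by 1.71 (adjusted p = 0.000353). Cd14, a receptor for bacterial lipopolysaccharide, was lower, at -2.95 (adjusted p = 0.000125) and Lyz2, a lysozyme, at -1.57 (adjusted p = 0.000375). The median of the 16 markers was 8.44, 7.53, 6.41 and 9.53 on 2D replicates 1 to 4, 7.72 to 8.06 in 3D and 8.27 to 9.24 in tissue. On the linear scale their summed level ran from 2147 to 20180 in 2D, 7191 to 9108 in 3D and 8719 to 12860 in tissue, with 2D replicate 3 the lowest and 2D replicate 4 the highest. Their part in the Itgam and Itgb2 values was not tested.

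**Figure D3:**
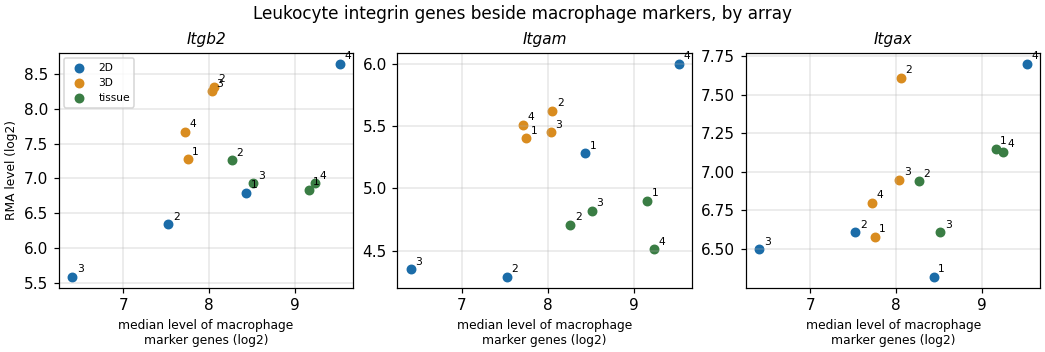
RMA level (log2) of Itgb2, Itgam and Itgax on each array against the median level of 16 macrophage markers on the same array, with replicate numbers beside the points. On 2D replicate 4 both axes are at their highest, and the tissue arrays lie to the right of the 3D arrays but lower for Itgb2 and Itgam.

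Itgb7, a chain of gut-homing lymphocytes, read 5.76 to 5.98 in 2D, 5.93 to 6.16 in 3D and 6.35, 6.62, 6.39 and 6.24 in tissue, above every culture array. It was higher against 2D by 0.53 (adjusted p = 0.0301), a call lost without any one of the 2D arrays or tissue replicate 2 (adjusted p = 0.062 to 0.0897) and with cyclic loess (0.32, adjusted p = 0.103). Against 3D the difference was 0.38 (adjusted p = 0.0539), which passed without tissue replicate 3 (adjusted p = 0.0451) or 4 (adjusted p = 0.0384). Itgal, the alpha chain of LFA-1, and Itgax, a marker of dendritic cells, passed no test between tissue and culture. Of 11 lymphocyte and neutrophil markers, 1 was higher against 2D and 2 against 3D, with a median level of 5.3 to 6.9 over the tissue arrays and 5.09 to 5.63 over the culture arrays. Their part was not tested.

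Of the genes that switch integrins on, Tln1 was lower and Tln2 higher in tissue than in 3D by the probe sets read. Tln1, the talin of most cells, read 10.93, 10.78, 10.75 and 11.29 in 2D, 10.88, 11.24, 11.17 and 11.18 in 3D, and 10.06, 9.25, 8.1 and 10.37 in tissue. The tissue arrays lay below the cultures and spread widely. Tln1 was lower, at -1.49 ± 0.44 (SE) against 2D and -1.67 ± 0.43 (SE) against 3D (limma, adjusted p = 0.0414 and 0.0177). The call against 2D was lost without any one of the 2D arrays or tissue replicate 2 (adjusted p = 0.0714 to 0.109), and that against 3D without 3D replicate 2 or tissue replicate 2 (adjusted p = 0.0508 and 0.0534). Another Tln1 probe set ran the opposite way against 3D, at 1.17 (adjusted p = 0.00195), and with the mean of its probe sets Tln1 passed neither test (-0.36 and -0.11). The direction of Tln1 thus rested on the probe set read.

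Tln2, the second talin, known from brain and muscle, read 10.21 to 10.52 in 2D, 9.78 to 10.21 in 3D, and 10.67, 10.52, 10.09 and 10.79 in tissue. It was higher than in 3D by 0.57 (adjusted p = 0.0403), a call lost in 6 of the 8 fits without 1 array, namely those without replicate 1, 2 or 4 of either 3D or tissue (adjusted p = 0.0722 to 0.115). Against 2D it was at 0.15 (adjusted p = 0.542), and at 0.59 with cyclic loess (adjusted p = 0.0116) and 0.38 with array quality weights (adjusted p = 0.0366), both of which passed. Fermt2, the kindlin of adherent cells, was at 12.25 ± 0.16 (SD, n = 4) in 2D, 12.28 ± 0.09 in 3D and 11.79 ± 0.68 in tissue and passed no test. Without tissue replicate 1 it was lower relative to 3D (-0.74, adjusted p = 0.0482). Its other probe sets ran in opposite directions, 1 lower at -1.36 and -1.26 and 1 higher at 0.56 against either culture.

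**Figure D4:**
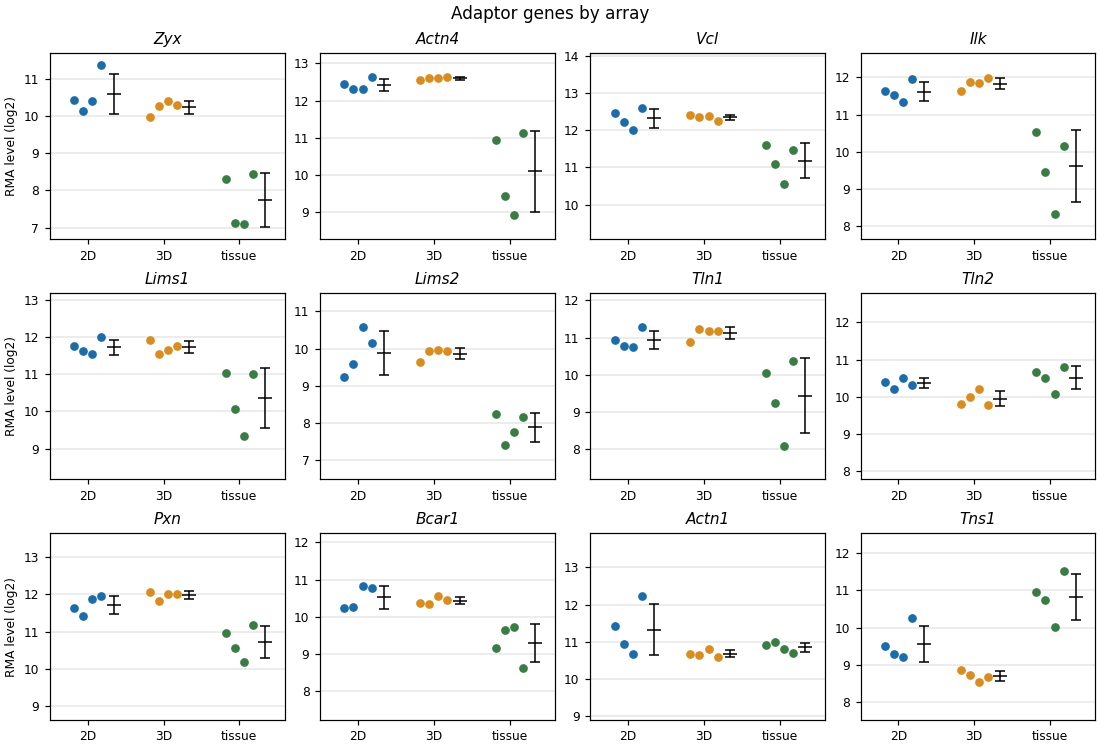
RMA levels (log2) of 12 adaptor genes on the 12 arrays, as points by group in replicate order, with the mean and SD of each group (n = 4) as bars beside them. Zyx, Actn4, Vcl, Ilk, Lims1, Lims2, Tln1, Pxn and Bcar1 lie below the cultures on all 4 tissue arrays. In these panels tissue replicates 1 and 4 lie above replicates 2 and 3, except for Bcar1, where they lie below.

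In the complex of ILK, PINCH and parvin, which sits on the tails of beta chains, the kinase-like scaffold and both PINCH genes were lower in tissue, and neither parvin gene passed. Ilk read 11.33 to 11.95 in 2D, 11.63 to 11.98 in 3D, and 10.53, 9.46, 8.33 and 10.16 in tissue. Its lowest culture array exceeded its highest tissue array, and the tissue SD was 0.97 (n = 4) against 0.26 and 0.15 in culture. The difference was -1.99 ± 0.43 (SE) against 2D and -2.21 ± 0.41 (SE) against 3D (limma, adjusted p = 0.0128 and 0.00411), which are 3.98-fold and 4.63-fold lower levels. Both calls held in all 8 fits without 1 array.

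Lims2, the PINCH2 gene, read 9.24, 9.58, 10.57 and 10.14 in 2D, 9.63 to 9.96 in 3D, and 8.24, 7.4, 7.76 and 8.15 in tissue, again with no overlap. It was lower, at -2.0 and -1.98 in tissue relative to 2D and 3D (adjusted p = 0.00344 and 0.000186). Lims1, the PINCH1 gene, read 11.53 to 12 in the cultures and 11.03, 10.05, 9.34 and 11 in tissue. Its difference was -1.37 against each culture (adjusted p = 0.0289 and 0.0182). The calls for Lims1 were lost without any one of the 2D arrays or tissue replicate 2 (adjusted p = 0.0517 to 0.087), and without 3D replicate 1 or 4 or tissue replicate 2 (adjusted p = 0.0506 to 0.0572).

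Parva, the parvin of most tissues, read 11.28 to 11.88 in 2D, 11.51 to 11.95 in 3D and 12.78, 12.11, 11.24 and 12.77 in tissue. On replicates 1, 2 and 4 tissue was above every culture array and on replicate 3 below. The difference was 0.67 and 0.58 in tissue relative to 2D and 3D (adjusted p = 0.167 and 0.191). Without tissue replicate 3 it was 0.99 and 0.91 and passed both tests (adjusted p = 0.0161 and 0.00752), as it did with cyclic loess (1.13 and 1.03) and centring (0.95 and 0.85). The other Parva probe set lay on the opposite side of 0, at -1.48 and -1.24, and did not pass. Parvb was at 8.8 ± 0.37 (SD, n = 4) in 2D, 8.24 ± 0.34 in 3D and 8.81 ± 0.26 in tissue, and its difference against 3D of 0.57 (adjusted p = 0.0585) passed without 3D replicate 1, at 0.74 (adjusted p = 0.02), with cyclic loess at 0.92 and with centring at 0.85.

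Of the actin linkers, Zyx, Actn4 and Vcl were lower in tissue and Tns1 higher. Zyx codes for zyxin, a LIM protein that gathers at adhesions and stress fibres under tension. It read 10.42, 10.12, 10.41 and 11.37 in 2D, 9.96, 10.27, 10.39 and 10.28 in 3D, and 8.31, 7.11, 7.1 and 8.44 in tissue. Every tissue array lay below every culture array. The difference was -2.84 ± 0.39 (SE) against 2D and -2.49 ± 0.33 (SE) against 3D (limma, adjusted p = 0.00203 and 0.000706), that is 7.16-fold and 5.6-fold lower, and it held in all 8 fits without 1 array. The other Zyx probe set was at -0.79 and -0.46 and did not pass.

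Vcl codes for vinculin, which binds talin and actin. It read 12.45, 12.23, 12.01 and 12.6 in 2D, 12.26 to 12.4 in 3D, and 11.6, 11.1, 10.55 and 11.46 in tissue. Every tissue array was below every culture array. The difference was -1.15 ± 0.25 (SE) against 2D and -1.17 ± 0.22 (SE) against 3D (limma, adjusted p = 0.0136 and 0.0042), and the other Vcl probe set was lower as well, at -1.75 and -2.27.

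The windows upstream of these genes are shown because Vcl and Zyx were lower in tissue against either culture and hold motifs of factors known for cytoskeletal genes. From RefSeq on GRCm38.p6, 29 of the 39 genes had a window of 250 bases before a gene start, 35 windows in all. Both strands were searched for the CArG box that serum response factor binds, for GGAATG, bound by TEAD factors, and for TGACTCA, bound by AP-1. The CArG box was in 1.47% of 32851 windows of this length, GGAATG in 12.6% and TGACTCA in 4.46%. Among the listed genes Fermt2, Itgb6 and Vcl held the CArG box, Actn4, Itga10, Itgb1 and Vcl held GGAATG, and Itgax and Zyx held TGACTCA. Some of these genes were lower in tissue, Itga10 was higher, and others passed no test. Among the 10 genes with a window that were lower against both cultures, 1 held the CArG box, 2 GGAATG and 1 TGACTCA. The window of Vcl lies on the plus strand of chromosome 14 at chr14:20929148-20929397 and that of Zyx on the plus strand of chromosome 6 at chr6:42349578-42349827. Capitals mark the CArG box from -227 to -218 and GGAATG from -143 to -138 in Vcl, and TGAGTCA, the reverse complement of the AP-1 motif, from -121 to -115 in Zyx, counted from the gene start. A match is a description of letters in the window and shows no binding.
Vcl: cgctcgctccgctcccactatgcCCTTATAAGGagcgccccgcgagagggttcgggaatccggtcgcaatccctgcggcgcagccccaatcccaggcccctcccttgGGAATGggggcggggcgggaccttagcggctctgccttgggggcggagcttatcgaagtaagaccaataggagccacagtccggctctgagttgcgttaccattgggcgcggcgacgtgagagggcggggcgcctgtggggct
Zyx: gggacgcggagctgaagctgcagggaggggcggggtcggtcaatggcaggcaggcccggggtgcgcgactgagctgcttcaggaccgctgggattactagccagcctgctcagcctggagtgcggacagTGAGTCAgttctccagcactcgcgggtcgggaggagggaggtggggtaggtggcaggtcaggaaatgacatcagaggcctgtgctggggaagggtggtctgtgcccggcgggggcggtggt

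Actn4 and Actn1 code for the alpha-actinins of non-muscle cells, which cross-link actin. Actn4 read 12.31 to 12.64 on the 8 culture arrays and 10.94, 9.44, 8.92 and 11.12 on the tissue arrays. It was lower, at -2.32 ± 0.47 (SE) against 2D and -2.5 ± 0.46 (SE) against 3D (limma, adjusted p = 0.01 and 0.00376), or 5.0-fold and 5.64-fold. Actn1 was at 11.33 ± 0.68 (SD, n = 4) in 2D, 10.68 ± 0.1 in 3D and 10.86 ± 0.13 in tissue. Its difference of 0.17 from 3D did not pass, but at 0.62 it did with cyclic loess (adjusted p = 0.0467), and 1 other Actn1 probe set was lower against 2D, at -1.43 (adjusted p = 0.0324).

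Tns1, a tensin that binds actin and beta chain tails in mature adhesions, was higher in tissue, where Zyx, Vcl and Actn4 were lower. Its level was 9.51, 9.28, 9.2 and 10.26 in 2D, 8.87, 8.72, 8.53 and 8.67 in 3D, and 10.96, 10.74, 10.02 and 11.52 in tissue. Tissue was above 3D on every array and met 2D where 2D replicate 4 passed tissue replicate 3. The difference was 2.11 against 3D (standard error 0.28, adjusted p = 0.00074), that is 4.32-fold higher, and 1.25 against 2D (standard error 0.34, adjusted p = 0.0322). The call against 2D was lost when 2D replicate 1, 2 or 3 was left out, or tissue replicate 1 or 2 (adjusted p = 0.0554 to 0.089). Of the other Tns1 probe sets, 1 was higher against both cultures and 1 against 3D, where against 2D it was at -0.04. Vasp, an actin elongation factor, was at 10.53 ± 0.33 (SD, n = 4) in 2D, 10.47 ± 0.05 in 3D and 10.38 ± 0.3 in tissue and passed no test. Smooth muscle markers, whose cells are known to hold tensin and zyxin, had a median of 7.68 to 9.16 in 2D, 7.76 to 8.19 in 3D and 7.45 to 8.17 in tissue. Of 8 such markers 1 was higher and 2 lower against 2D, and 1 higher and 1 lower against 3D. The part of smooth and skeletal muscle in these values was not tested.

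Both scaffolds were lower in tissue relative to either culture, and the kinase Src relative to 3D. Pxn codes for paxillin, a scaffold for kinases. It read 11.43 to 11.96 in 2D, 11.82 to 12.07 in 3D, and 10.96, 10.55, 10.19 and 11.18 in tissue, with no overlap. It was lower, at -1.0 and -1.25 in tissue relative to 2D and 3D (adjusted p = 0.0187 and 0.00254), and the call against 2D was lost without 2D replicate 4 or tissue replicate 2 (adjusted p = 0.0566 and 0.06). Bcar1, the p130Cas scaffold that is stretched under force, read 10.23 to 10.82 in the cultures and 9.16, 9.65, 9.73 and 8.64 in tissue. It was lower, at -1.23 and -1.14 in tissue relative to 2D and 3D (adjusted p = 0.0145 and 0.00657). With cyclic loess these were -0.79 and -0.7 (adjusted p = 0.158 and 0.157), and with centring -0.95 and -0.86 (adjusted p = 0.0589 and 0.0525). Src, the tyrosine kinase, was lower against 3D, at -0.52 (adjusted p = 0.0495) and was at -0.56 against 2D (adjusted p = 0.0936). The call against 3D held without tissue replicate 3 and was lost in the 7 other fits without 1 array (adjusted p = 0.0801 to 0.132), and without tissue replicate 3 Src passed against 2D as well, at -0.71 (adjusted p = 0.0326). With cyclic loess its difference from 3D was -0.09 (adjusted p = 0.83) and with centring -0.24 (adjusted p = 0.434). Another Src probe set was lower against both cultures, at -0.98 and -1.09.

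Paralog pairs were set against each other within each array, as a description with no test, since the pairs were chosen after their values had been seen. The log2 ratio of Tln1 to Tln2 was 0.57 ± 0.3 (SD, n = 4) in 2D, 1.17 ± 0.19 in 3D and -1.07 ± 0.71 in tissue. It ran from 0.23 to 1.4 on the culture arrays and from -1.99 to -0.42 on the tissue arrays. That of Actn4 to Actn1 was 1.1 ± 0.53 in 2D, 1.92 ± 0.12 in 3D and -0.75 ± 1.14 in tissue, where tissue replicate 4, at 0.42, met 2D replicate 4, at 0.4. The ratios of Lims2 to Lims1 and of Parva to Parvb overlapped between all 3 groups. A ratio of 2 probe sets shows unequal change between groups, and its size does not compare amounts of RNA. The probe sets of Tln1 disagreed. Other Actn1 probe sets were at -1.48 and -1.43 in tissue relative to 2D and at -0.7 and -0.62 relative to 3D. The Actn1 probe set read was at -0.47 and 0.17. The ratios of Tln1 to Tln2 and of Actn4 to Actn1 thus hold for the probe sets read here.

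**Figure D5:**
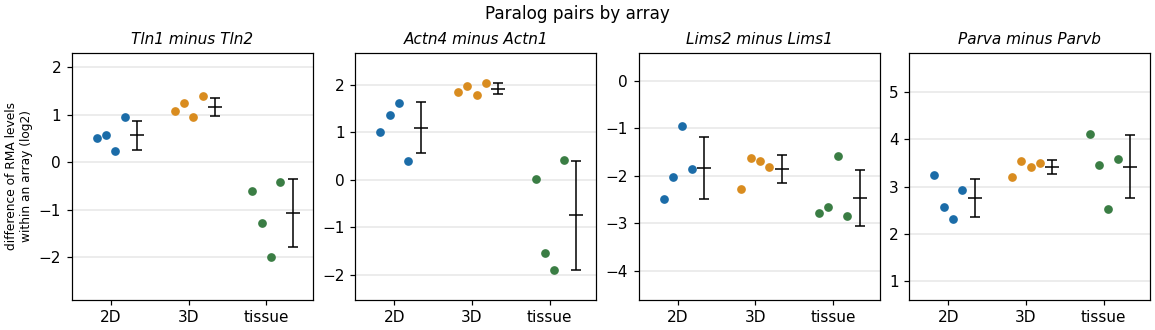
Log2 ratio of the RMA levels of 4 paralog pairs within each array, as points by group in replicate order, with the mean and SD of each group (n = 4) as bars. For Tln1 and Tln2 the culture arrays lie at 0.23 to 1.4 and the tissue arrays at -1.99 to -0.42, while the groups overlap for Lims2 and Lims1 and for Parva and Parvb.

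Counted by separation, 12 of the 39 genes lay lower on all 4 tissue arrays than on all 4 2D arrays and 4 lay higher (18.5% and 15.3% of all genes). Against 3D, 17 lay lower and 5 higher (24.1% and 18.3% of all genes). An exact permutation test (two-sided, 70 splits of 8 arrays) gives such genes p = 0.0286, the smallest that 4 arrays against 4 allow. Of 51 other probe sets for 26 of the genes, 30 had the same call as the probe set read against 2D and 34 against 3D, and 1 had the opposite call, that of Tln1 against 3D. A same call includes cases where neither probe set passed, so these counts do not show how often a pass was repeated.

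Between 3D and 2D, 0 of the 39 genes passed limma's test, where 0.0165% of all genes were higher and 0% lower. The smallest adjusted p was 0.217, that of Tns1. The 95% interval of the difference lay within 1 log2 unit of 0 for 27 of the 39 genes, so that a 2-fold difference was outside it. By the methods' t-test 0 passed after adjustment, and 1 was higher and 4 lower at an unadjusted p under 0.05 (7.23% and 4.41% of all genes). By limma 8 of the 39 had an unadjusted p under 0.05, against 13.1% of all genes. Itga7 and Itgb8 were on the higher side in 3D, at 1.3 and 0.52, with intervals from 0.18 to 2.41 and from 0.06 to 0.98, and Itga10 was at 0.19. On the lower side were Itga1 at -0.85, Tns1 at -0.87, Parvb at -0.56, Itga4 at -0.49 and Tln2 at -0.42. The arrays of the 2 cultures did not overlap for Itga4 and Tns1, both lower in 3D, as 2.87% of all genes were (4.49% higher and 7.36% in either direction). Itga4 read 8.14, 8.03, 8.7 and 7.99 in 2D and 7.53, 7.83, 7.74 and 7.79 in 3D.

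The typical spread of the 39 genes in this comparison, a median residual SD of 0.35, was larger than the 0.17 of all genes. For Itgb2 the 2D arrays alone ran from 5.58 to 8.65, and the interval of its difference from -0.3 to 2.37. With array quality weights Itga1 (-1.09, adjusted p = 0.0352) and Tns1 (-0.79, adjusted p = 0.0475) were lower.

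Other genes of focal adhesions were more often lower than higher in tissue. Of 35 measured, 14 were lower and 0 higher in tissue against 2D (14.3% and 9.87% of all genes). Against 3D, 16 were lower and 2 higher (20.1% and 15.5% of all genes). The median differences were -0.79 against 2D and -0.64 against 3D. Pdlim1, a PDZ and LIM protein of actin bundles, was lower, at -3.36 and -3.12 (adjusted p = 9.78e-05 and 9.25e-06), Cnn2, a calponin, at -1.8 and -1.67, and Flna, the filamin that binds beta chain tails, at -2.31 and -2.76. Cav1, the coat protein of caveolae, was higher against 3D by 1.5 (adjusted p = 0.00916). Between 3D and 2D, 0 of the 35 passed limma's test.

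Of 29 genes of adhesion signalling, 2 were higher and 6 lower against 2D (9.87% and 14.3% of all genes). Against 3D, 2 were higher and 11 lower (15.5% and 20.1% of all genes). Dock1, the exchange factor for Rac that p130Cas recruits, was lower, at -1.65 and -2.14 (adjusted p = 0.00383 and 0.000281), and Arhgef7, the beta-PIX exchange factor, at -1.26 and -1.56. Ptk2b, the PYK2 kinase related to focal adhesion kinase, was higher by 0.72 and 1.03 (adjusted p = 0.0347 and 0.0025). Ptk2, the gene of focal adhesion kinase itself, was not analysed here.

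Of 30 genes that code for integrin ligands, 2 were higher and 15 lower against 2D (9.87% and 14.3% of all genes). Against 3D, 3 were higher and 17 lower (15.5% and 20.1% of all genes). Ccn2, a matrix protein that integrins bind, was lower, at -5.11 and -4.42 (adjusted p = 1.79e-05 and 1.76e-06), Ccn1, a protein of the same family, at -3.55 and -3.0, and Fn1, the fibronectin that the Itga5 product binds, at -2.4 and -2.95 (adjusted p = 0.0181 and 0.00167). Vtn, vitronectin, was higher by 2.83 and 2.99 (adjusted p = 0.000118 and 2.75e-05), while Itgav and Itgb5, whose chains bind it, were lower. With cyclic loess the lower calls of Itgav and Itgb5 were lost against both cultures. Itgb3, whose chain also pairs with alpha v, was higher than in 3D by 0.68 (limma, adjusted p = 0.0104). Its difference of 0.66 against 2D did not pass. Cdh1, the E-cadherin that some integrins of lymphocytes bind, was higher by 4.99 and 5.19. Fibroblast markers, whose cells make much of this matrix, had 3 of 10 higher and 3 lower against 2D, and 1 higher and 3 lower against 3D, with a median of 9.32 to 10.92 in tissue and 10.73 to 11.62 in culture. Endothelial markers had 6 of 10 higher and 1 lower against 2D and 6 higher against 3D, sympathetic neuron markers 2 and 7 of 11 higher, and epithelial markers 1 of 8 higher, which was Cdh1. The part of these cell types was not tested.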

How the data were processed

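RNA of 12 mouse samples was read on Affymetrix Mouse Genome 430 2.0 arrays. The deposited values are log2 levels that the authors made with RMA (background correction, quantile normalisation and median polish over probes) in Expression Console, with no version stated in the sources used here. Of 45101 probe sets, 64 controls were left out. By the platform annotation 34945 of the others named 1 gene, 932 several and 9160 are unnamed here. Each gene was read by its single-gene probe set of highest mean level over all 12 arrays. Pairs of groups (8 arrays) were fitted with limma 3.58.1 (statmod 1.5.0) in R 4.3.3, with Benjamini-Hochberg adjustment over 45037 probe sets. The script was tested on simulated data. Quantile normalisation over all arrays would give them like distributions, yet the deposited values differ in SD between arrays (1.93 to 2.42), so how the 12 arrays were normalised together is not settled here. The number of arrays, 4 a group, limits the precision. Figures and sequences were handled in Python 3.11.15, and all 39 genes matched RefSeq by identifier.

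The members, the gene lists, the motifs and the tests were chosen with earlier results of these data known. All members were described, and of each other list the 4 genes with the smallest adjusted p in a comparison could be named, plus any gene that a member's result turns on (Fn1). Paralog pairs were chosen after their values had been seen. Alternatives were other normalisations, filters, probe set rules, tests, a replicate block and arrays left out.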

Additional observations from a re-analysis of the deposited data

Results flagged for a closer look

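In 8 of 117 combinations of a gene and a group, 1 of the 4 arrays stood apart from the other 3 by Dixon's criterion, a large gap to the nearest array for the group's range, where 5.85 would be flagged by chance at 1 in 20. On 3D replicate 1 there were 4 of them. Itga1 was high there at 9.29 (nearest 8.90) and Parva at 11.95 (nearest 11.58), while Itga5 was low at 9.37 (nearest 9.66) and Lims2 at 9.63 (nearest 9.93). Itgb1 was low on 2D replicate 3, at 10.80 against 12.04 on the nearest array. Itga7 was low on tissue replicate 3, at 7.56 against 8.69. On tissue replicate 4, Itga3 was high at 10.71 (nearest 10.20) and Parvb at 9.19 (nearest 8.72).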

How the results depend on the processing

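Between 3D and 2D, 0 higher and 0 lower genes became 0 and 2 with array quality weights (1.08% and 0.638% of all genes). By the unadjusted t-test of the methods they were 1 and 4 (7.23% and 4.41%). Without 2D replicate 4 and 3D replicate 1 they were 2 and 2 (2.45% and 5.01%). Those arrays were chosen with earlier results known. They lie at the ends of their groups for some of these genes, so no direction is read from them. Without any single array the counts stayed at 0. Against 2D, the 3 higher genes (9.87% of all genes) became 6 with 1 fit of all 12 arrays (18%). They became 8 with array weights (16.7%), 6 with cyclic loess (14.3%) and 6 with centring (16.6%). There were 5 by the unadjusted t-test (17.2%), 1 with a 2-fold minimum (5.03%) and 5 without tissue replicates 2 and 3 (10.1%). The 13 lower genes (14.3%) became 7 by the adjusted t-test (8.56%), 9 with cyclic loess (13.1%) and 10 with centring (10.3%). With tissue replicate 1 as the only tissue array, the median difference of the list was -0.41 against 2D, where that of all genes was -0.015. Without single arrays the counts against 2D ran from 0 to 4 higher and 8 to 15 lower (4.77% to 11.4% and 8.11% to 17.3% of all genes). Without tissue replicate 2 they were 0 and 8 (4.91% and 8.11% of all genes). Against 3D, the 5 higher genes (15.5% of all genes) became 9 with array weights (21.8%) and 8 with cyclic loess (20.5%). They became 8 with centring (22.2%), 2 with a 2-fold minimum (7.53%) and 8 without tissue replicates 2 and 3 (22.7%). The 18 lower genes (20.1%) became 13 with cyclic loess (18.7%) and 12 with centring (14.4%). Fits without a single array left 3 to 7 higher and 14 to 19 lower (9.99% to 19.3% and 14% to 24% of all genes). Itgal reversed against 3D without tissue replicates 2 and 3, from 0.12 to -0.38 (adjusted p = 0.0463). The causes were not tested. With the replicate block there were 2 higher and 15 lower against 2D, 4 and 16 against 3D, and 0 and 0 between cultures. Deviations of same-numbered arrays correlated at -0.07 to 0.41, not all over 0.1. They were at 0.21 to 0.41 for replicate 1, 0.15 to 0.25 for replicate 3 and -0.07 to 0.15 for replicates 2 and 4. Whether samples of the same number share an origin is not stated and is not settled by these values. Of the 13 and 18 lower genes, 8 and 13 passed in all 8 fits without 1 array, and of the 3 and 5 higher genes 0 and 3. The share of all genes that passed in all such fits was not counted, so these counts have no background.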
